A study of Mus musculus with 4 samples.

Results

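CD8 T cells recognise peptide on MHC class I through a receptor that is supported by the CD8 coreceptor and signals through the CD3 chains. Naive CD8 T cells leave the thymus with homing receptors such as Ccr7 and circulate through lymph nodes, while effector and memory cells produce the chemokine Ccl5, granzymes and interferon gamma and also settle in tissues such as the lung. In old mice, naive cells become fewer and memory-like cells with natural killer (NK) receptors accumulate. Activated T cells are large consumers of glutamine, whose use BPTES inhibits.

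The CD8 T cells described here were 2143 of 68675 kept droplet barcodes from the lungs of old mice. A barcode was kept with at least 500 genes, at least 1000 unique molecular identifiers (UMIs, each 1 captured mRNA molecule) and at most 10% of its UMIs from mitochondrial genes. It was a member if at least 2 of the 4 genes Cd3d, Cd3e, Cd3g and Trac had a UMI, if Cd8b1 had at least 1 UMI or Cd8a at least 2, and if Cd4, Ncr1, Trdc and Cd79a had none. Cd8a (chr6:71373427-71379173, plus strand, GRCm38) and its neighbour Cd8b1 (chr6:71322788-71337494, plus strand) encode the 2 chains of the coreceptor. Both were detected in 1894 members, Cd8b1 alone in 200 and Cd8a alone in 49. At the threshold, 102 members carried the least coreceptor signal that the rule accepts, and 33 barcodes that met all other terms fell just outside it. Members were divided by Ccl5 (chr11:83525778-83530518, minus strand) into 504 naive-like cells with 0 Ccl5 UMIs and 1555 effector-like cells with at least 3. The division cut a sparsely filled range: 65 members had 1 Ccl5 UMI, 19 had 2 and 4 had 3, while the median effector-like cell held 93 to 118.5 depending on the library. The members and their 2 states were thus chosen by measured UMIs of these genes, whose levels are given as a description only.

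All 4 libraries came from male C57BL/6 mice that were 19 months old when a 1-month treatment began, with BPTES for 2 libraries and with its vehicle DMSO for the other 2. BPTES is a small-molecule inhibitor of glutamine metabolism. Lungs were digested with Liberase for 1 hr, cells were sorted on CD45, and 20000 CD45-negative cells were mixed with 9000 CD45-positive cells, so the share of immune cells in a library was set at the sort. No library of young or untreated mice was among the samples, and the labels do not say how many mice stand behind a library or that libraries are separate animals, so p-values measure the spread between these libraries only. No batch or date was given.

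The files held 16440 to 21986 barcodes and 260346570 to 342107092 UMIs per library, and 91.0% to 93.5% of the barcodes were kept. Members numbered 384 and 549 in BPTES libraries 1 and 2, and 405 and 805 in DMSO libraries 1 and 2. Their depth was even: the median member held 19080, 18331, 19602 and 19509 UMIs in that order. Summed over members, a library gave 7847915 to 17593245 UMIs. Levels below are CPM, the UMIs of a gene per 1000000 summed UMIs of the same cells, always in the order BPTES 1, BPTES 2, DMSO 1, DMSO 2. Pairs of libraries shared 65 to 104 barcodes.

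Some members carried transcripts of other lineages. A member was counted as a possible doublet, that is 2 cells in 1 droplet, if at least 3 marker genes of 1 other lineage had at least 5 UMIs each, a criterion chosen after the data were seen. This held for 46, 61, 59 and 134 members, or 12.0%, 11.1%, 14.6% and 16.6%. Their median depth was 33454 to 41328 UMIs, against 17770 to 18635.5 in the other members. Monocyte and macrophage markers were the most frequent reason (20, 30, 32 and 69 cells), beside endothelial markers (16, 14, 16 and 51 cells) and fibroblast markers (9, 19, 14 and 16 cells). Leaving these cells out lowered the summed level of the 5 alveolar type 2 (AT2) epithelial markers from 297, 936, 1159 and 1743 CPM to 317, 212, 72.9 and 156 CPM in all libraries but BPTES 1. The 8 monocyte and macrophage markers went from 901, 1500, 1488 and 2072 CPM to 186, 135, 69.6 and 120 CPM. Both sets of markers are part of the criterion, so a fall in their levels was largely built into it. In the remaining cells both summed levels were higher in each BPTES library than in each DMSO library. Results that touch such genes, and the gene lists under treatment, are given with and without the possible doublets.

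The genes that differed between the Ccl5 states were described before the treatment, because they show what the division separates. The promoters of 4 of the 15 leading effector-like genes held the letters TCACACC, or GGTGTGA on the other strand, which match the core recognised by T-box factors such as Tbx21 and Eomes. Their RefSeq windows (GRCm38.p6, 250 bases before to 50 after the annotated start, 5′ to 3′ on the gene's strand) are shown because the chemokine gene Xcl1, the granzyme genes Gzmk and Gzmm, and Samd3 were higher in effector-like cells of all 4 libraries, as Tbx21 and Eomes were. Capitals mark the match. Gzmm has a second window, at another annotated start, that does not hold the letters. The windows lie at chr1:164935473-164935772 (minus strand, Xcl1), chr13:113180916-113181215 (minus strand, Gzmk), chr10:26229457-26229756 (plus strand, Samd3) and chr10:79693576-79693875 (plus strand, Gzmm).
Xcl1: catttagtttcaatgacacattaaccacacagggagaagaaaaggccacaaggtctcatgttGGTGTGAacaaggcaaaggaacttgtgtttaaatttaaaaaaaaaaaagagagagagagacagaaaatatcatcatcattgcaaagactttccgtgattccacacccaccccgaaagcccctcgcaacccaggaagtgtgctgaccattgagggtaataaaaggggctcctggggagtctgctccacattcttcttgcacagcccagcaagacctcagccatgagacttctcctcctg
Gzmk: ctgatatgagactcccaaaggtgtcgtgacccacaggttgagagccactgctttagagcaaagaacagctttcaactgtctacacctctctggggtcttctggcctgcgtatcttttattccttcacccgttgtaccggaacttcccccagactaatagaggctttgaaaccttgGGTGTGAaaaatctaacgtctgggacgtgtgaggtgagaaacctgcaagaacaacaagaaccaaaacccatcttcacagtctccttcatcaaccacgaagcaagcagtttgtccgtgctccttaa
Samd3: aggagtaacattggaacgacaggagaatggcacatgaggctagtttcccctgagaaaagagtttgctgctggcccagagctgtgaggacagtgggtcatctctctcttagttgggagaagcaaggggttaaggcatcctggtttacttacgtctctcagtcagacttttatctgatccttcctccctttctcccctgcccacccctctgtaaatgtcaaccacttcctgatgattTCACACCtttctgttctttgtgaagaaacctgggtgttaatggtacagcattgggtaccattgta
Gzmm: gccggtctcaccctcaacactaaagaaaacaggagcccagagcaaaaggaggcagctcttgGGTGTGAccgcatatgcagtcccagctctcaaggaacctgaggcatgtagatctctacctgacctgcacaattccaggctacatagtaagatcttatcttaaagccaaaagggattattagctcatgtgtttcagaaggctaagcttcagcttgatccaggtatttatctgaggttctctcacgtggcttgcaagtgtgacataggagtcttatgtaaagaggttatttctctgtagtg
Windows existed for 12 of 16 genes (the 15 leading effector-like genes and Ccl5), and 4 of their 16 windows (25.0%) held the T-box letters. The same letters were in 0 of 14 windows of the leading naive-like genes and in 3.98% of all 32851 windows. The letters CTTTGAT or ATCAAAG, the core recognised by the TCF and LEF factors, were in 1 of the 16 windows (Klra7), in 0 of the 14 and in 3.73% of all windows. The genes were chosen by their levels in these same cells, and whether any of these factors bind or regulate them was not tested.

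Effector-like cells carried the cytotoxic programme and, with it, NK receptors. Gzmb, the granzyme that triggers apoptosis in target cells (chr14:56258838-56262260, minus strand), stood at 170, 152, 237 and 210 CPM in effector-like cells and at 0.41, 1.27, 1.25 and 1.42 CPM in naive-like cells. Gzma, a second serine protease of the granules, had 262 ± 74.9 CPM (SD, n = 4 libraries) against 0.95 ± 0.22 CPM. Gzmk, a granzyme typical of memory cells in old mice (chr13:113171608-113225908, minus strand), had 70.5 ± 17.7 against 1.37 ± 2.44 CPM. Perforin (Prf1), a pore-forming granule protein, and Nkg7, which serves granule release, were less divided. Their log2 ratios were 1.79 ± 0.15 and 1.78 ± 0.04 (SD over 4 libraries, 1 CPM added to each level). The death ligand Fasl, interferon gamma (Ifng) and the T-box factors Tbx21 and Eomes had ratios of 4.0, 3.94, 2.97 and 3.72. Of the 23 cytotoxic genes measured, 21 were higher in effector-like cells of all 4 libraries and 0 were lower in all 4, with a median log2 ratio of 2.47. Over all 12370 genes, 26.0% were higher in effector-like cells of all 4 libraries, 13.5% were lower in all 4, and the median was 0.08.

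NK receptors divided the states further. The inhibitory receptor gene Klrc1 (NKG2A) had 199, 189, 198 and 194 CPM in effector-like cells against a mean of 1.05 CPM in naive-like cells. The activating receptor gene Klrk1 (NKG2D) had 356 ± 45.7 against 24.7 ± 3.96 CPM. Klra7 and Klrg1 had 0 UMIs in naive-like cells of all 4 libraries and 73.1 ± 22.2 and 18.9 CPM in effector-like cells. Of 14 NK receptor genes measured, 13 were higher in effector-like cells of all 4 libraries, with a median log2 ratio of 4.11. The median was 5.80 with UMIs pooled over libraries and any sum under 3 UMIs in either state set at 3. The 3 genes without a naive-like UMI were among those raised. NK cells of the same libraries differed from effector-like cells in their granzymes, with a mean Gzma level of 5471 CPM and a mean Gzmk level of 1.12 CPM.

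Many effector-like cells also held UMIs of genes of naive cells. The lymph node homing receptor gene Ccr7 (chr11:99144196-99155077, minus strand) and Lef1, which encodes a transcription factor of naive T cells, were both detected in 906 of 1555 effector-like cells (58.3%), and in 441 of 504 naive-like cells (87.5%). The name effector-like was given by Ccl5 alone, and Ccr7 and Lef1 went against it in the 906 cells. With cells thinned to 3000 UMIs, a Ccr7 UMI was seen in 35.7% to 41.2% of effector-like cells and a Lef1 UMI in 63.4% to 69.8%. In endothelial cells of the same libraries, which should lack both, the thinned shares were at most 0.61% for Ccr7 and 0.33% for Lef1. The genes that memory CD8 T cells carry after cytokine stimulation were higher in effector-like cells of all 4 libraries for 9 of 12 genes. Among them, the Ly6C gene Ly6c2 had 796 against 113 CPM, the interleukin 12 receptor gene Il12rb2 had 331 against 22.8 CPM and the interleukin 2 and 15 receptor gene Il2rb had 359 against 144 CPM. Of 16 naive and memory genes, 13 were higher in naive-like cells of all 4 libraries, among them Lef1 (log2 ratio -1.11), Ccr7 (-1.27) and Dapl1 (-2.75). The other 3 genes of that list, the costimulatory receptors Cd27 and Cd28 and the survival gene Bcl2, were higher in effector-like cells of all 4 libraries. Of 13 exhaustion and age-associated genes, 7 were higher and 2 lower in effector-like cells of all 4 libraries, with a median log2 ratio of 0.61. The inhibitory receptor gene Pdcd1 (PD-1) stood at 13.1 against 2.69 CPM, and Tox was higher in effector-like cells of 2 libraries and lower in those of the other 2. Proliferation genes were higher in effector-like cells, with Mki67 at 58.9 against 6.22 CPM and 15 of 16 proliferation genes higher in all 4 libraries.

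**Figure D1:**
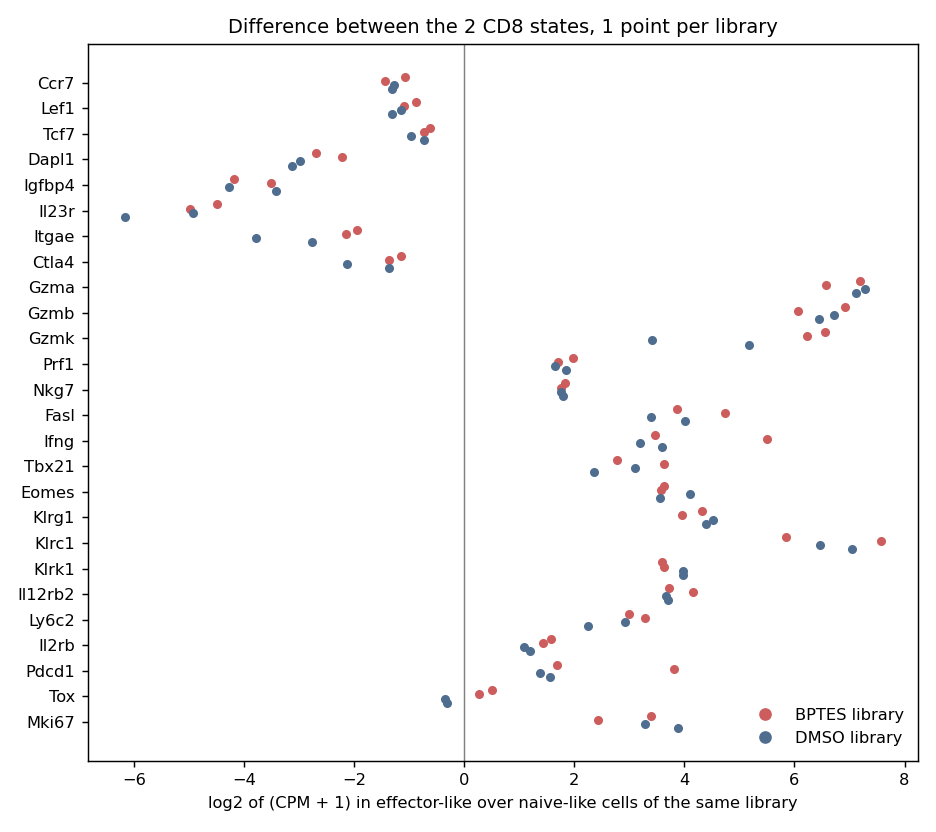
Log2 of (CPM + 1) in effector-like over (CPM + 1) in naive-like cells of the same library, with 1 point for each BPTES (red) and DMSO (blue) library. Granzyme and NK receptor genes lie far to the right, Ccr7, Lef1 and Tcf7 slightly to the left, and Tox on both sides of 0.

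Some naive-like cells carried genes of innate-like T cells. Il23r, the interleukin 23 receptor gene, led the genes higher in naive-like cells, with 98.0, 52.2, 134 and 80.0 CPM against 0.13 to 3.40 CPM in effector-like cells. Conventional CD4 T cells had a mean of 80.2 CPM. A group chosen after these values were seen, cells with at least 3 of the 5 genes Il23r, Il1r1, Zbtb16, Cxcr6 and Ramp1, made up 22, 15, 14 and 10 naive-like cells, or 18.5%, 7.61%, 16.3% and 9.80%. Zbtb16 encodes a transcription factor of innate-like T cells. These 61 cells held 826 of the 827 Il23r UMIs of the naive-like cells, and 6 of the 61 had both Ccr7 and Lef1. Il23r is 1 of the 5 genes of the criterion, so its place in these cells was partly built in. The same criterion held for 71 effector-like cells (4.57%), 47 of which had both Ccr7 and Lef1. All effector-like cells together held 48 Il23r UMIs, 44 of them in those 71 cells. The name naive-like went against these markers in the 61 cells. Itgae, which encodes the CD103 integrin chain, had 43.4 CPM in naive-like and 6.49 CPM in effector-like cells. An Itgae UMI was seen in 35.3%, 25.4%, 36.0% and 41.2% of all naive-like cells and in 13.6%, 13.3%, 21.4% and 30.0% of those with the Il23r group of genes, so the group did not hold most of it. In endothelial cells an Itgae UMI was seen in 1.00% to 1.79%. The inhibitory receptor gene Ctla4 had 216 against 75.7 CPM.

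Genes that handle glutamine divided the states little. Of 21 glutamine genes measured, 7 were higher in effector-like cells of all 4 libraries, 0 were lower in all 4, and the median log2 ratio was 0.06, close to that of all genes. Slc3a2, the shared heavy chain of amino acid exchangers, had a ratio of 0.59.

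The proportion of the states differed between the treatment groups. Effector-like cells made up 64.3% (95% exact binomial interval 59.3% to 69.1%) of the members in BPTES library 1 and 59.2% (55.0% to 63.3%) in BPTES library 2. They made up 75.6% (71.1% to 79.7%) in DMSO library 1 and 84.1% (81.4% to 86.6%) in DMSO library 2. The groups did not overlap: the means were 61.8% ± 3.62 and 79.8% ± 6.04 (SD, n = 2 each), a difference of -18.1 percentage points. Naive-like cells made up 31.0% (26.4% to 35.9%), 35.9% (31.9% to 40.1%), 21.2% (17.4% to 25.5%) and 12.7% (10.5% to 15.2%), so the BPTES libraries were 16.5 points higher on average. A two-sided exact permutation test over libraries gave p = 0.333 for the effector-like share, which is the smallest p that 2 against 2 libraries allow. The intervals cover counting error only. With each cell thinned to 3000 UMIs the difference was -20.7 points, and without the possible doublets it was -17.6 points. A planned and stricter filter, which removed members with at least 2 of 42 other-lineage genes at 2 or more UMIs and so took 82.8% of them, left a difference of -7.39 points with overlapping groups. It took 346 of 384, 477 of 549, 270 of 405 and 682 of 805 members, the smallest share in DMSO library 1.

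**Figure D2:**
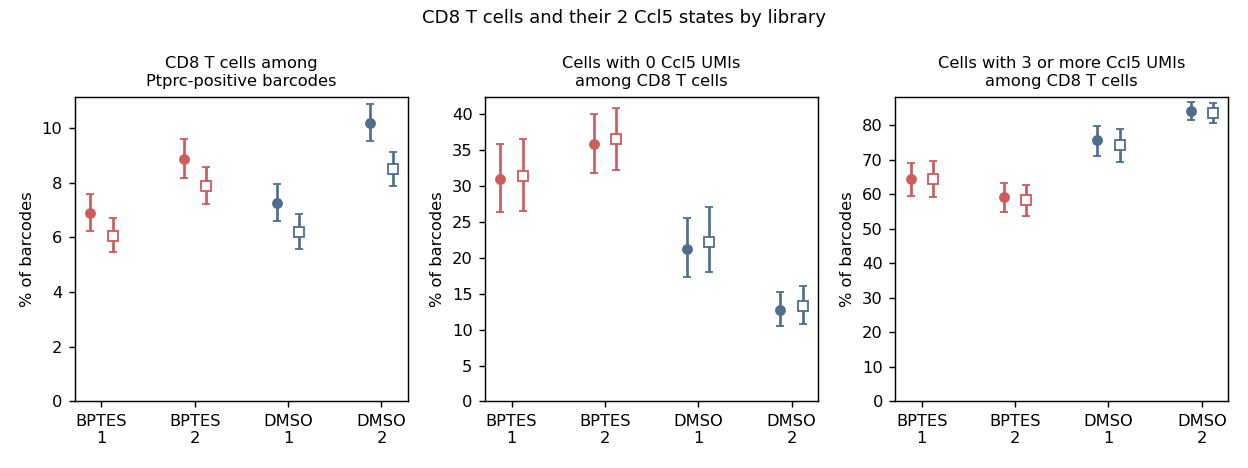
Share of barcodes in each library with 95% exact binomial intervals, for CD8 T cells among Ptprc-positive barcodes (left) and for the naive-like (middle) and effector-like (right) states among CD8 T cells; circles show all members and squares the members without possible doublets. The state shares of the BPTES (red) and DMSO (blue) libraries do not overlap in either form, while the share of CD8 T cells does. For the squares on the left, possible doublets were removed from the CD8 T cells and not from the Ptprc-positive barcodes.

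Counted against all immune cells, naive-like cells were 2.13%, 3.18%, 1.54% and 1.29% of the barcodes with a UMI of the immune gene Ptprc (CD45), and effector-like cells were 4.43%, 5.24%, 5.48% and 8.57%. With all members, the naive-like share was higher and the effector-like share lower in both BPTES libraries. The effector-like groups overlapped under a wider form of the doublet criterion (at least 2 marker genes). Under the planned doublet filter the naive-like groups overlapped and changed sign, at means of 0.207% and 0.262%. CD8 T cells as a whole were 6.89%, 8.86%, 7.25% and 10.2% of these barcodes, with means of 7.87% ± 1.40 and 8.72% ± 2.07 that overlapped (exact permutation p = 0.667, n = 2 each). Under the planned doublet filter the means of that share were 0.922% and 1.99%, without overlap. Each doublet filter removed members only and left the Ptprc-positive barcodes whole. The filtered shares among these barcodes therefore also carry the uneven removal of members between libraries, whose part was not tested. With all members, CD8 T cells were 33.6%, 38.3%, 41.2% and 51.6% of the barcodes with at least 2 of the 4 CD3 and Trac genes. The means were 36.0% ± 3.29 and 46.4% ± 7.30, without overlap (exact permutation p = 0.333, n = 2 each). Naive-like cells that had both Ccr7 and Lef1 and did not belong to the group with Il23r and related genes were 25.0%, 32.8%, 17.3% and 11.1% of the members, and again did not overlap. Since 441 of the 504 naive-like cells had both genes, this share largely repeats the naive-like share and is no separate support.

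In all CD8 T cells, no gene passed the test of the treatment. In edgeR's quasi-likelihood test with Benjamini-Hochberg adjustment, 0 of 13312 genes (0%) were called at the 0.05 threshold, while 10.8% had an unadjusted p under 0.05 and DESeq2 called 194. Gzmb was 109, 94.9, 187 and 178 CPM, a log2 fold change of -0.81 (adjusted p = 0.162). Dapl1, the naive-like gene above, was 95.7, 93.9, 55.6 and 50.8 CPM, with a log2 fold change of 0.87 (adjusted p = 0.135). The groups were apart for both genes, Gzmb lower and Dapl1 higher in the BPTES libraries. Of 16 naive and memory genes, 10 had both BPTES libraries above both DMSO libraries and 0 had the reverse, with a median log2 fold change of 0.19. Of 23 cytotoxic genes, 0 and 14 did, with a median of -0.27. Over all genes tested the BPTES libraries were apart and higher for 16.1% and apart and lower for 26.8%. Without possible doublets, the naive and memory genes had 8 apart and higher and 0 apart and lower, and the cytotoxic genes 1 and 16, beside 15.6% and 27.6% of all genes. The share of effector-like cells moved with these levels. Its part in them was not tested in that fit, and the levels within each state follow.

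Within effector-like cells, 2 of 12650 genes (0.0158%) passed the test, both lower in BPTES, and 7.26% had an unadjusted p under 0.05. Sftpd encodes surfactant protein D of AT2 cells and had 4.37, 3.79, 41.8 and 46.9 CPM (log2 fold change -3.43 ± 0.16 SE, edgeR adjusted p = 0.0141). Scd1, a fatty acid desaturase gene, had 5.77, 4.74, 44.3 and 53.1 CPM (-3.21 ± 0.18 SE, edgeR adjusted p = 0.0174). In DMSO library 1, 287 of 295 Sftpd UMIs lay in 2 cells, and in DMSO library 2 443 of 698 did. Without the possible doublets, Sftpd stood at 4.78, 3.66, 1.65 and 2.22 CPM and Scd1 at 6.03, 4.76, 3.10 and 4.83 CPM, and neither gene was called. Sftpd is itself an AT2 marker of the doublet criterion, so its fall was largely built into that criterion. Scd1 is not among the markers.

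Within naive-like cells, 2 of 10286 genes (0.0194%) passed, both higher in BPTES, and 4.82% had an unadjusted p under 0.05. Kcnip4, a potassium channel interacting protein gene, had 62.8, 60.1, 0 and 0.47 CPM (log2 fold change 7.61 ± 0.43 SE, edgeR adjusted p = 0.0065). Its UMIs came from 1 cell for 151 of 153 in BPTES library 1 and for 226 of 237 in BPTES library 2. Lpl, the lipoprotein lipase gene, had 71.8, 58.6, 5.64 and 5.68 CPM (3.53 ± 0.23 SE, edgeR adjusted p = 0.00915), with 168 of 175 and 175 of 231 UMIs in 1 cell. The macrophage gene Chil3 was placed alike, with 284 of 290 and 472 of 494 naive-like UMIs in 1 cell of each BPTES library. Without the possible doublets, Kcnip4 was at most 0.98 CPM and Lpl at most 2.25 CPM in any library, and 0 of 9061 genes were called, while 5.58% had an unadjusted p under 0.05.

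**Figure D3:**
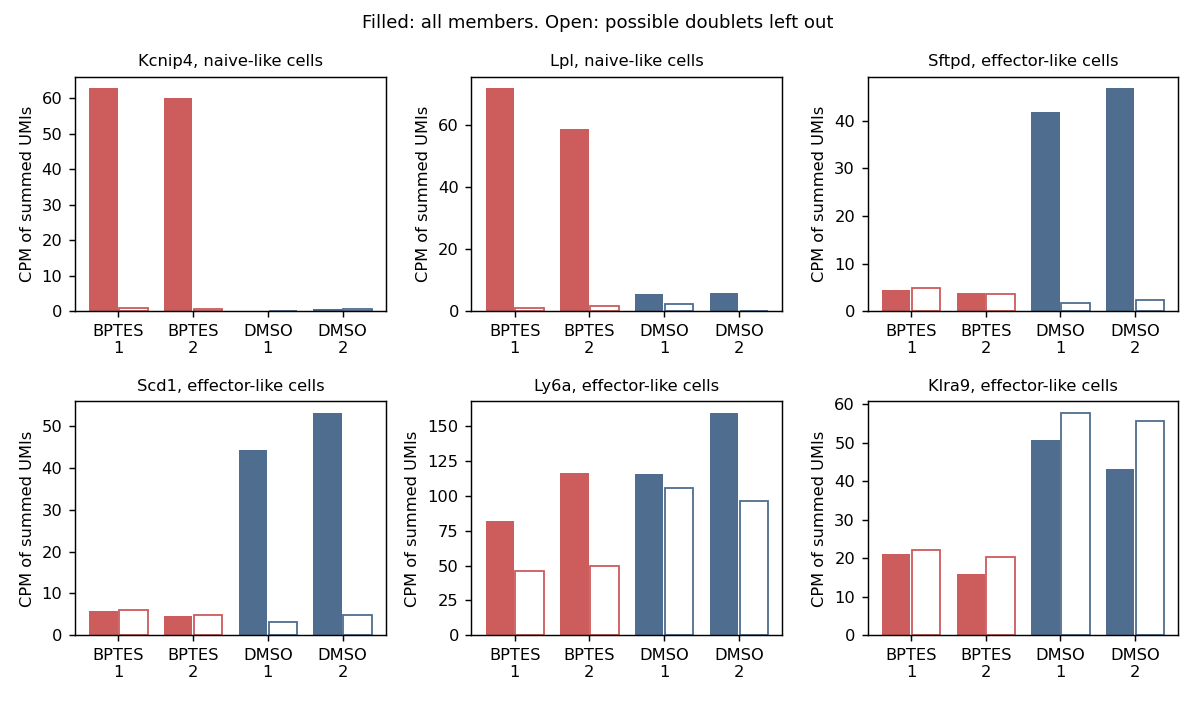
CPM of summed UMIs per library for 6 genes, in all members (filled bars) and without possible doublets (open bars), BPTES in red and DMSO in blue. The BPTES bars of Kcnip4 and Lpl and the DMSO bars of Sftpd and Scd1 shrink to under 7 CPM without possible doublets, whereas Klra9 keeps its difference and the groups of Ly6a come apart. Sftpd is itself a marker of the doublet criterion.

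Without the possible doublets, 2 of 11086 genes (0.018%) passed the test in effector-like cells. Klra9, an NK receptor gene of the Ly49 family (chr6:130178675-130193112, minus strand), had 22.1, 20.3, 57.9 and 55.8 CPM and fell by 1.40 on the log2 scale (± 0.12 SE, edgeR adjusted p = 0.0134). With all members it had 21.1, 15.97, 50.6 and 43.2 CPM and a log2 fold change of -1.32 (edgeR adjusted p = 0.335; 5.1e-15 to 0.716 over all alternatives). Under the planned doublet filter it was -0.73 (edgeR adjusted p = 0.716). With all members and without possible doublets the groups did not overlap. Ly49 genes are near-identical copies of each other, so UMIs may have been split between them and the value of a single gene is uncertain. Among its relatives in effector-like cells with all members, Klra7 overlapped at 99.2, 51.4, 83.7 and 58.2 CPM, and Klra3 was higher in both BPTES libraries at 38.4, 42.5, 31.5 and 21.2 CPM. A UMI of Klra9 was seen in 11.3%, 9.23%, 20.9% and 14.6% of effector-like cells, in 47.7% to 55.7% of NK cells and in at most 0.25% of B cells. Ly6a, the gene of the surface protein Sca-1 (chr15:74994877-74998031, minus strand), had 46.2, 49.6, 105 and 96.3 CPM and fell by 1.04 (± 0.10 SE, edgeR adjusted p = 0.0182). With all members its groups overlapped at 81.7, 116, 115 and 159 CPM (log2 fold change -0.45, -0.19 without DMSO library 2 and -0.73 without BPTES library 2, edgeR adjusted p = 0.719; 0.000228 to 1.0 over all alternatives), and 37.3% to 68.5% of its UMIs lay in possible doublets. In all CD8 T cells without possible doublets, Klra9 and the transcription factor gene Bhlhe40 were the 2 genes called of 11823 (0.0169%). Klra9 had a log2 fold change of -1.76 there and -0.94 under the planned doublet filter. Bhlhe40 had 133, 131, 229 and 224 CPM and fell by 0.74 (edgeR adjusted p = 0.0498), and with all members its log2 fold change was -0.56 (adjusted p = 0.162; 1.86e-05 to 0.828 over all alternatives). Klra9, Ly6a and Bhlhe40 were singled out after their values were seen.

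The granzymes of effector-like cells pointed in different directions, and none passed the test. Gzmb was 170, 152, 237 and 210 CPM, lower in both BPTES libraries (log2 fold change -0.45 ± 0.09 SE, edgeR adjusted p = 0.481). Perforin (Prf1) was 78.9, 81.9, 98.2 and 102 CPM (-0.29, adjusted p = 0.491), and Gzma was 265, 166, 349 and 269 CPM (-0.50, adjusted p = 0.725). Those 3 genes encode proteins of cytolytic granules, and their groups did not overlap, for Gzma only by 265 against 269 CPM. Over all genes tested in effector-like cells, 22.6% were apart and lower and 16.5% apart and higher. Gzmk was 93.4, 73.6, 62.8 and 52.0 CPM, higher in both BPTES libraries (0.57 ± 0.15 SE, adjusted p = 0.524). With cells thinned to 3000 UMIs, a Gzmk UMI was seen in 22.0%, 16.9%, 15.1% and 12.3% of effector-like cells and in at most 0.075% of B cells. The T-box factor genes differed in sign as well. Tbx21, the factor of terminal effectors, was 90.1, 86.8, 115 and 106 CPM (-0.30, adjusted p = 0.517), and Eomes, which supports memory cells, was 149, 131, 114 and 106 CPM (0.37, adjusted p = 0.491). Tox, which encodes a factor of exhausted and aged CD8 T cells, was 205, 161, 118 and 138 CPM (0.53, adjusted p = 0.523). Mki67 overlapped at 26.6, 86.6, 45.1 and 77.0 CPM.

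**Figure D4:**
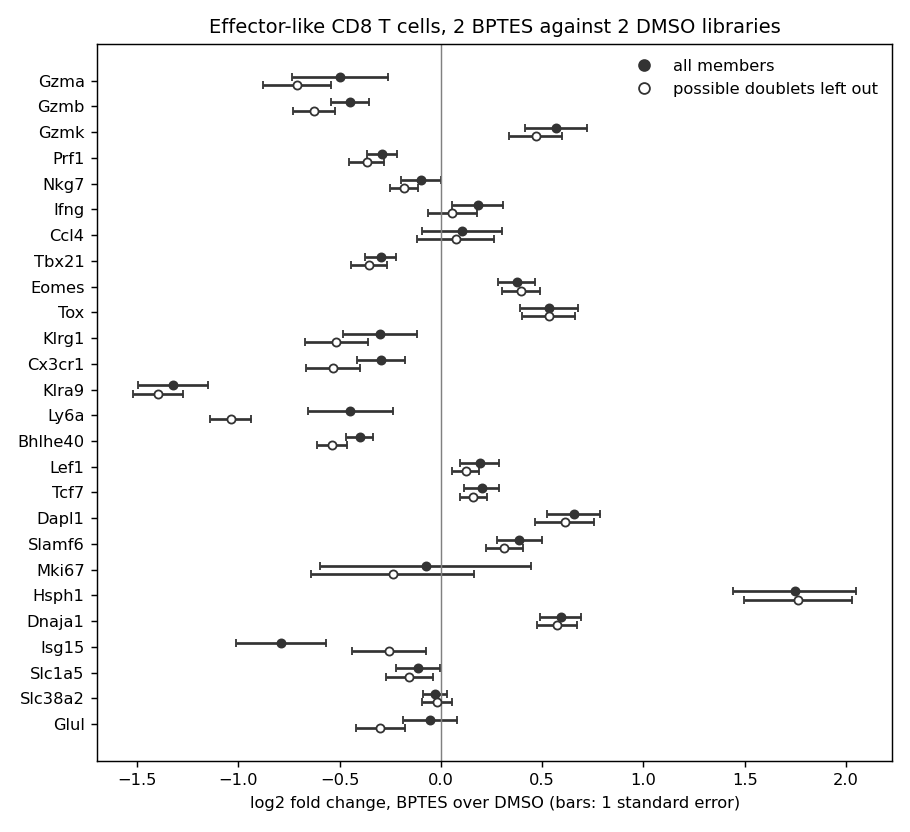
Log2 fold change of BPTES over DMSO in effector-like CD8 T cells with 1 standard error (edgeR), for all members (filled) and without possible doublets (open). Granzymes a and b, Prf1 and Tbx21 lie left of 0 and Gzmk, Eomes and Tox right of 0, and of the genes shown only Klra9 and Ly6a pass the test, without possible doublets.

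As lists, the fixed gene groups held 0 called genes in effector-like cells, and without possible doublets Klra9 was the 1 called. Of 23 cytotoxic genes, 11 had positive fold changes, 3 were apart and higher and 8 apart and lower, with a median of -0.02. Without possible doublets these numbers were 8, 2 and 11, with a median of -0.14. Of 13 exhaustion and age-associated genes, 8 were positive, 5 apart and higher and 2 apart and lower, with a median of 0.37. Without possible doublets, 9 were positive, 5 higher and 1 lower, with a median of 0.32. Interferon response genes had 4 positive of 18, 13 with both BPTES libraries lower and a median of -0.29, which became 8 lower and -0.20 without possible doublets. The summed level of the 18 interferon genes was also lower in both BPTES libraries in CD4 T cells (918, 916, 1120 and 1044 CPM), NK cells (794, 727, 870 and 874 CPM) and endothelial cells (1797, 1402, 1874 and 1916 CPM), and overlapped in B cells (635, 592, 607 and 661 CPM) and in naive-like CD8 T cells (718, 650, 672 and 891 CPM). The background in effector-like cells was 16.5% of genes apart and higher and 22.6% apart and lower, and 15.7% and 22.5% without possible doublets. All 10 heat shock genes had positive fold changes, 7 of them apart and higher, with a median of 0.48 (0.34 without possible doublets). Hsph1, a chaperone gene, was 82.5, 155, 31.2 and 40.6 CPM (log2 fold change 1.75 ± 0.30 SE, edgeR adjusted p = 0.459). This was not limited to CD8 T cells: the summed level of the 10 heat shock genes was higher in both BPTES libraries in CD8 T cells (3763, 4585, 3219 and 3294 CPM), in NK cells (3083, 4532, 2481 and 2507 CPM), in B cells (2653, 3686, 2038 and 2248 CPM) and in endothelial cells (2519, 3505, 1914 and 2031 CPM). Heat shock genes also respond to tissue digestion, and the part of handling in these values was not tested.

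Glutamine genes gave no call either. Of 21 glutamine genes in effector-like cells, 4 had positive fold changes, 1 was apart and higher and 12 were apart and lower, with a median of -0.10. Over all genes tested there, 6324 of 12650 had positive fold changes, 16.5% were apart and higher and 22.6% apart and lower. Without possible doublets, 3 of 19 glutamine genes had positive fold changes, beside 5602 of 11086 for all genes, and the glutamine median was again -0.10. In that form 4 were apart and lower, beside 22.5% of all genes, and 1 was apart and higher, beside 15.7%. Cdkn2a, the p16 senescence gene, was at 1.22 to 2.28 CPM in effector-like cells of all libraries.

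Within naive-like cells, the fixed lists also held 0 called genes. Naive and memory genes had 8 positive fold changes of 16, with 2 apart and higher and 4 apart and lower, beside a background of 14.8% and 19.7%. Without possible doublets 10 were positive, 3 apart and higher and 0 apart and lower, beside 15% and 20.5%. All 8 heat shock genes tested were positive, 7 of them apart and higher in both forms.

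Whether the treatment difference itself depended on state or cell type was tested with the library as a block. For effector-like against naive-like cells, 0 of 12370 genes were called (4.34% had an unadjusted p under 0.05, and DESeq2 called 6). Without possible doublets 3 of 11021 genes (0.0272%) were called, namely the histone gene Hist1h1b (-4.01, edgeR adjusted p = 0.0488) and the MHC class II genes H2-Aa (-2.40, edgeR adjusted p = 0.0403) and Cd74 (-2.23, edgeR adjusted p = 0.0403). With all members these differences were -3.80, -1.17 and -0.77 (edgeR adjusted p = 0.632, 0.995 and 0.995). Over the other settings Hist1h1b ranged from -4.05 to -0.72, H2-Aa from -1.99 to 0.66 and Cd74 from -1.47 to 0.56, and the wider form of the doublet criterion called 0 genes. MHC class II genes are typical of B cells and dendritic cells, and the doublet criterion had no dendritic lineage. Without possible doublets, the 8 dendritic markers, which include H2-Aa and Cd74, summed to 133, 641, 51.8 and 61.1 CPM in naive-like cells and to 395, 1032, 324 and 713 CPM in effector-like cells. Their part in these calls was not tested. For CD8 against conventional CD4 T cells (872 barcodes), 0 of 13224 genes were called (9.66% unadjusted, 55 by DESeq2), and 0 of 11641 without possible doublets.

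The receptor V gene, which the gate did not use, shows V gene usage and does not identify clones. A leading Trbv gene, the beta chain V gene with the most UMIs, was assigned in 43.7%, 45.5%, 40.5% and 43.6% of effector-like cells and in 52.9%, 42.6%, 46.5% and 54.9% of naive-like cells, since 3′ tag libraries capture this part of the transcript only in part. Shares are given for the 6 Trbv genes with the highest share in effector-like cells of any library, so they were chosen for being high there. With 1 UMI accepted, Trbv12-2 was the most frequent of the 6 genes in effector-like cells of all 4 libraries, at 22 of 108 (20.4%, exact interval 13.2% to 29.2%), 22 of 148 (14.9%, 9.6% to 21.6%), 38 of 124 (30.6%, 22.7% to 39.6%) and 52 of 295 (17.6%, 13.5% to 22.5%). In BPTES library 2, Trbv1 was close behind at 21 of 148 cells. In naive-like cells Trbv12-2, which was chosen by its effector-like share, was 9.5%, 15.5%, 7.5% and 8.9%. With at least 2 UMIs required, its effector-like shares were 23.8% of 42 cells, 7.1% of 56, 18.2% of 33 and 17.3% of 104. In BPTES library 2 it was then behind Trbv2 (17.9%), Trbv16 and Trbv13-2 (10.7% each) and Trbv1 (8.9%). Other V genes were frequent in effector-like cells of single libraries or groups. Trbv1 had 6.5%, 14.2%, 1.6% and 2.7%, and Trbv15 had 2.8%, 2.0%, 11.3% and 5.4%. Trbv16 had 10.2%, 10.8%, 4.0% and 4.7%, and Trbv13-2 overlapped at 10.2%, 7.4%, 8.1% and 10.5%. In naive-like cells Trbv16 went the other way, at 4.8%, 7.1%, 10.0% and 10.7%. Trbv1 overlapped in naive-like cells, at 4.8%, 9.5%, 5.0% and 1.8%, and in CD4 T cells, at 6.0%, 13.7%, 10.0% and 4.1%. Its high share in BPTES library 2 was thus not limited to effector-like cells. With at least 2 UMIs, the effector-like shares of Trbv1 were 7.1%, 8.9%, 3.0% and 1.9%. Those of Trbv15 were 4.8%, 0.0%, 15.2% and 5.8%, and those of Trbv16 were 9.5%, 10.7%, 6.1% and 7.7%. Trbv2, common among CD4 T cells, was 2.8%, 10.1%, 3.2% and 4.7%. Clones differ between animals, so these shares describe each library and were not tested.

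**Figure D5:**
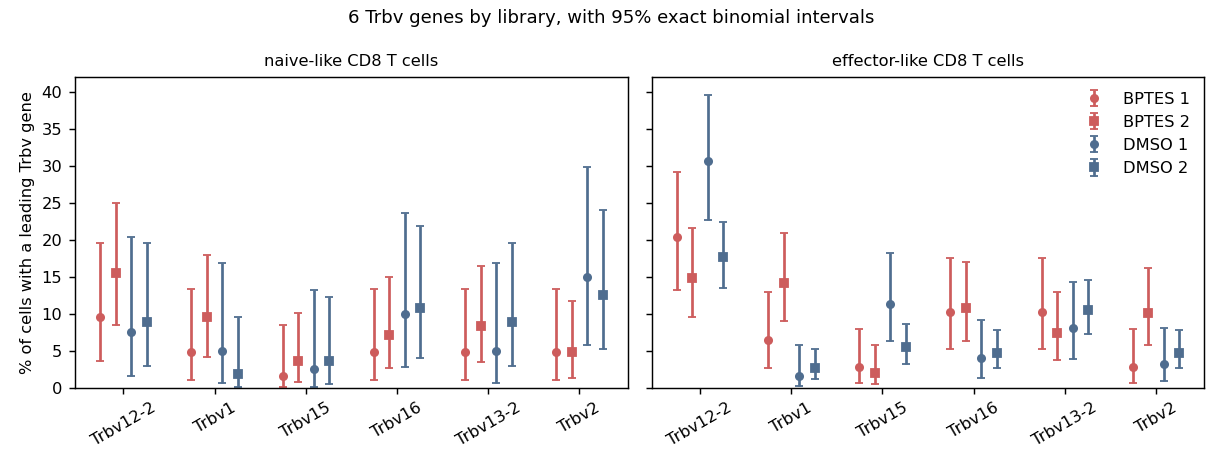
Share of each Trbv gene among cells with a leading Trbv gene, in naive-like (left) and effector-like (right) CD8 T cells, with 95% exact binomial intervals for each library. Trbv12-2 reaches 30.6% in effector-like cells of DMSO library 1, and the intervals of naive-like cells are wide because few cells had a V gene.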

How the data were processed

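Single-cell 3′ libraries of 4 lung samples were deposited as filtered UMI count matrices; the authors used Cell Ranger 8.0.1 and the mm10 genome, per the submitters' processing notes, and the annotation release is not given in the sources used here. Of 31054 features, 30934 matched GENCODE M21 (GRCm38) by identifier. The members, lists and rules were chosen with earlier results of these data known. No doublet caller was run. Some genes are not reported here. Barcodes were gated on UMIs, and UMIs were summed per library and population. Sums were compared with edgeR 4.0.16 (limma 3.58.1, R 4.3.3; TMM, filterByExpr, quasi-likelihood test, Benjamini-Hochberg adjusted p under 0.05, two-sided) with 2 libraries a group, and DESeq2 1.42.0 was an alternative. The scripts' model was tested on simulated counts first. Shares got 95% Clopper-Pearson intervals and a two-sided exact permutation test over libraries (Python 3.11.15, scipy 1.17.1). Named genes were called genes with at least 10 CPM and groups apart, called list members, fixed T cell and glutamine genes, and up to 15 genes per direction between the states with at least 50 CPM in the higher one. Alternatives covered mitochondrial limit, low-count filter, thinning, doublet filters, replicate block and each library left out; both forms of the doublet criterion were added after the data were seen, and the effector-like share under both had been seen before 1 was taken. Depth was 260346570 to 342107092 UMIs per library.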

Additional observations from a re-analysis of the deposited data

How the results depend on the processing

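With each library left out in turn, the difference in effector-like share stayed negative (-22.3 to -13.8 percentage points). The planned doublet filter moved it to -7.39, with overlapping groups. The share of CD8 T cells among CD3 or Trac barcodes ranged from -15.6 to -5.29 points. Their share among Ptprc-positive barcodes ranged from -2.31 to 0.619 and changed sign without BPTES library 1 (0.142) and without DMSO library 2 (0.619). Counts of called genes depended on the tool. DESeq2 called 194 genes in all CD8 T cells, 5 in naive-like cells, 55 in effector-like cells, 6 for the state difference and 55 for the difference from CD4 T cells. Without the low-count filter the same counts were 442, 280, 529, 95 and 276. Leaving out the possible doublets gave 2 in all CD8 T cells, 0 in naive-like cells and 3 for the state difference, and the wider form of that criterion (at least 2 marker genes) gave 4, 0 and 0. The planned doublet filter and the division by Ccl5 after thinning each gave 0 in naive-like cells. In effector-like cells, thinning and a mitochondrial limit of 5% each gave 0, and the planned doublet filter called 2 genes, both higher in BPTES and neither of them Sftpd or Scd1. Without BPTES library 1, BPTES library 2, DMSO library 1 or DMSO library 2, the counts were 0, 7, 0 and 0 in all CD8 T cells, 34, 4, 24 and 2 in naive-like cells, and 29, 50, 11 and 17 in effector-like cells. They were 30, 13, 0 and 0 for the state difference and 10, 54, 1 and 14 for the difference from CD4 T cells, and a lone library was then assumed to vary like the other group. The replicate block gave 68, 7 and 4 calls in the 3 populations. Same-numbered libraries correlated at 0.187, 0.161 and 0.0893 in their deviations, and 2 pairs are too few to tell whether the numbers pair the libraries. With the block, Gzmb and Dapl1 were among the genes called in all CD8 T cells (adjusted p = 0.0151 and 0.0196). Sftpd turned to 1.08 and Scd1 to 0.41 without possible doublets, and to 1.20 and 0.44 with the wider form. The Trbv12-2 share of DMSO library 1 moved to 18.2% with at least 2 UMIs. The cause of these changes was not tested. What size of difference 2 libraries a group could show was not measured for genes of low level.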
